A study of Mus musculus with 9 samples.

Results

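Pim kinases and the feedback genes of STAT5 signalling were followed in BV2 cells, an immortalized mouse microglial line, after exposure to MNPs@SiO2(RITC), nanoparticles with a core of cobalt ferrite and a silica coat labelled with the dye rhodamine B isothiocyanate (RITC). The 10 genes are Pim1, Pim2, Pim3, Cish, Socs1, Socs2, Socs3, Bcl6, Stat5a and Stat5b, and they were taken by gene name from a table of 40993 genes. The 9 RNA-seq libraries fall into 3 groups of 3, namely the non-treated control and a 12 h exposure to MNPs@SiO2(RITC) at 10 or 100 µg/ml, which the labels write as 0.01 and 0.1 µg/µl. All libraries share the BV2 background, and no source used here states whether the 3 libraries of a group came from separate cultures, so the p-values below measure only the spread between these libraries. The genes were chosen by their role with measured values of this table known, the fall of Pim2 among them, so their own differences are given as a description and without a test.

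Levels are in FPKM, fragments per kilobase of transcript per M (mega) mapped fragments, in which the length of the transcript and the depth of the library are already divided out. A difference is a difference in mean log2(FPKM + 1) with its standard error (SE), and the added 1 makes differences of weakly expressed genes smaller than their ratios. In bulk RNA, fewer cells that express a gene and less of its RNA per cell cannot be told apart.

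Cytokines such as GM-CSF, the growth hormone family and the common gamma chain interleukins bind receptors that carry Janus kinases. The kinases phosphorylate STAT5A and STAT5B, which pair up, enter the nucleus and bind DNA elements of the form TTCNNNGAA. Among the genes that STAT5 switches on are the Pim kinases, which promote survival and translation and are active as soon as they are made, and the SOCS family with Cish, whose SH2 domains bind activated receptors or kinases and shut the signal down. BCL6 is a transcriptional repressor that binds elements close to those of STAT5 and opposes it at shared targets in lymphocytes. Microglia and macrophages use this pathway in their response to GM-CSF.

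In control cells the 10 genes spanned a wide range of levels. Pim3 was the highest with a mean of 21.3 FPKM, and it was followed by Pim2 (18.1), Pim1 (17.4), Bcl6 (15.6), Stat5b (15.1), Stat5a (9.15), Socs3 (5.79), Socs2 (2.44), Cish (0.351) and Socs1 (0.348). Neighbours in this order whose control libraries overlapped were Pim2 and Pim1, Bcl6 and Stat5b, and Cish and Socs1. Pim3 stood at percentile 56.7 of all genes tested, and Socs2 at percentile 9.43. The Pim kinases were at about the middle of the genes tested in control cells, and Socs3, at percentile 22.03, was the highest of Cish, Socs1, Socs2 and Socs3. Socs4, Socs5, Socs6 and Socs7, which are outside the 10 genes, had higher control means, given below.

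Of the Pim family, Pim2 had the largest difference at 100 µg/ml MNPs@SiO2(RITC), where its mean FPKM fell by 53.9% from control. The means of Pim1 and Pim3 were 15.3 and 26.4 FPKM there, beside 17.4 and 21.3 FPKM in control cells, and neither was past the threshold applied to all genes. Pim2 (ENSMUSG00000031155) lies on the plus strand at chrX:7878262-7883432 of GRCm38. It was at 17.1, 18.9 and 18.3 FPKM in the control libraries, 17.5, 17.4 and 18.7 FPKM at 10 µg/ml, and 8.37, 8.53 and 8.11 FPKM at 100 µg/ml. The 3 libraries at 100 µg/ml were close together and all below the other 6, and those at 10 µg/ml lay within the control range. The group means were 18.1 ± 0.927, 17.9 ± 0.686 and 8.34 ± 0.214 FPKM (SD, n = 3). The difference was -1.03 on the log2 scale at 100 µg/ml against control (SE 0.059), -0.02 at 10 µg/ml against control and -1.01 at 100 against 10 µg/ml. Control cells thus held 2.17 times the Pim2 level of cells at 100 µg/ml. In the order of the largest falls among the 11161 genes tested, Pim2 was at rank 41 at 100 µg/ml against control and at rank 34 at 100 against 10 µg/ml. At an approximate depth of 12.4 to 15 M fragments per library, its values rest on about 217 to 542 fragments each.

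Pim1 (ENSMUSG00000024014, chr17:29490812-29496111, plus strand), the first member of the family to be found as a site of retroviral insertion in lymphoma, was at 16.8, 18.4 and 17.1 FPKM in control cells, 19.8, 17.4 and 20.2 FPKM at 10 µg/ml, and 16.2, 14.7 and 15.1 FPKM at 100 µg/ml. The libraries at 100 µg/ml were all below those of both other groups, while control and 10 µg/ml overlapped. The differences were -0.17 (SE 0.072) at 100 µg/ml against control, 0.13 at 10 µg/ml against control and -0.30 at 100 against 10 µg/ml.

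Pim3 (ENSMUSG00000035828, chr15:88862186-88865718, plus strand) was at 20.0, 21.9 and 22.2 FPKM in control cells, 20.7, 23.1 and 22.7 FPKM at 10 µg/ml, and 28.8, 24.4 and 26.03 FPKM at 100 µg/ml. All 3 libraries at 100 µg/ml were above the other 6. The difference was 0.29 (SE 0.076) at 100 µg/ml against control, an increase of 23.7% in mean FPKM, and 0.05 at 10 µg/ml against control.

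**Figure D1:**
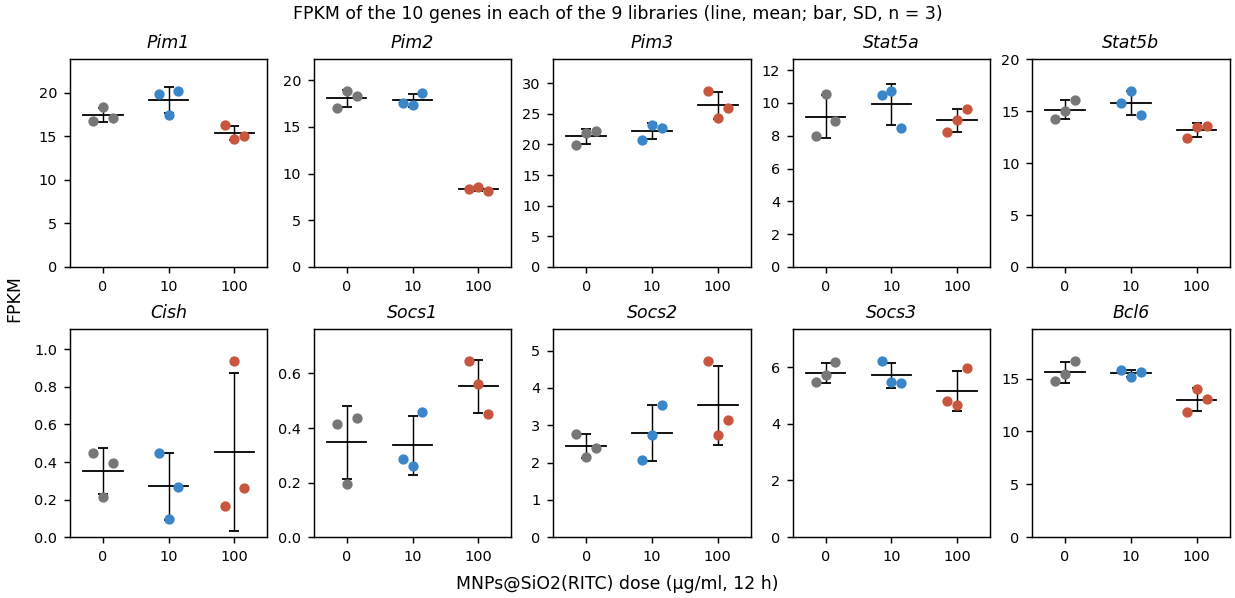
FPKM (y axis, from 0, own scale in each panel) of the 10 genes in each of the 9 libraries against the MNPs@SiO2(RITC) dose (x axis, µg/ml). Points are libraries, lines are group means and bars are the SD (n = 3). Pim2 at 100 µg/ml lies between 8.11 and 8.53 FPKM, below all other libraries, whereas Pim3 is higher there and Cish and Socs1 stay below 1 FPKM.

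Because FPKM is per length, the 3 kinases can be summed. The sum was 56.8 ± 2.72 FPKM in control cells, 59.2 ± 2.03 at 10 µg/ml and 50.1 ± 2.99 at 100 µg/ml (SD, n = 3). The library at 100 µg/ml with the highest sum had 53.4 FPKM and the control library with the lowest had 53.8 FPKM, so these groups were separate by a narrow margin. The make-up of the family moved further than its sum. Pim2 made up 31.7%, 31.9% and 31.8% of the sum in the control libraries, 30.2%, 30.01% and 30.3% at 10 µg/ml, and 15.7%, 17.9% and 16.5% at 100 µg/ml. Pim3 made up 37.5 ± 0.834% in control cells and 52.7 ± 1.37% at 100 µg/ml, while the share of Pim1 was 30.7% and 30.6%. The ratio of Pim2 to Pim3 was 0.848 ± 0.0200 in control cells, 0.807 ± 0.0491 at 10 µg/ml and 0.318 ± 0.0301 at 100 µg/ml.

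**Figure D2:**
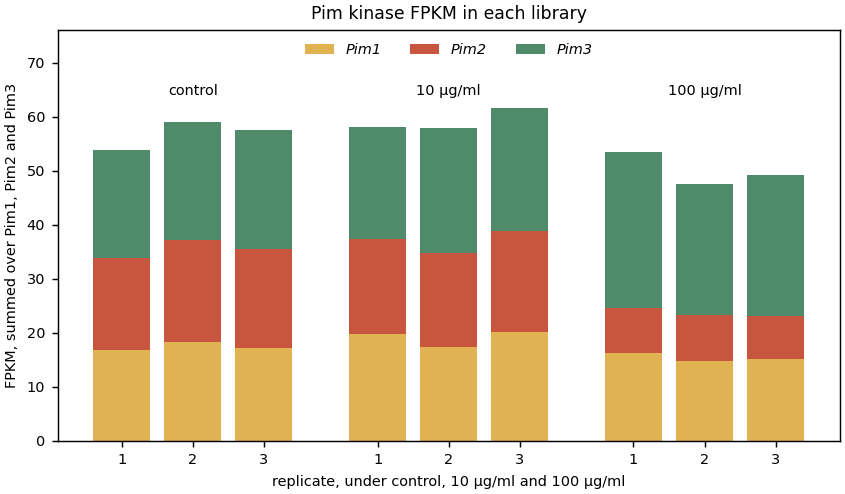
FPKM (y axis, from 0) of Pim1, Pim2 and Pim3 stacked for each of the 9 libraries (x axis, replicates by group). The Pim2 segment is 15.7% to 17.9% of the bar at 100 µg/ml and 30.01% to 31.9% in the other libraries.

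The sequences upstream of the 3 Pim genes are shown because Pim2 stood apart from the other two. Each is the 200 bases before the first annotated start of the gene, on the plus strand, which for Pim1 is the start in GENCODE M21, upstream of the start in the deposited table, and the stretches are taken from the RefSeq promoter windows of GRCm38.p6, at chr17:29490553-29490752 for Pim1, chrX:7878062-7878261 for Pim2 and chr15:88861986-88862185 for Pim3. Capitals mark the CCAAT box, written ATTGG on this strand, and the octamer ATGCAAAT, written ATTTGCAT on the other strand.
Pim1: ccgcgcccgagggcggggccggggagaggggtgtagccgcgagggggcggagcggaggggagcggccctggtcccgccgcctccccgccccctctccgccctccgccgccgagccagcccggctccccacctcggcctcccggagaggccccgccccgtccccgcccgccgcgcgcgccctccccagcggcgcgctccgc
Pim2: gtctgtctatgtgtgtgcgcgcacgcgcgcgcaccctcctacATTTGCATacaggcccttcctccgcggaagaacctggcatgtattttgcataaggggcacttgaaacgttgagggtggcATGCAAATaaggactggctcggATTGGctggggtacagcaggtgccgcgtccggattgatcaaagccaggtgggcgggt
Pim3: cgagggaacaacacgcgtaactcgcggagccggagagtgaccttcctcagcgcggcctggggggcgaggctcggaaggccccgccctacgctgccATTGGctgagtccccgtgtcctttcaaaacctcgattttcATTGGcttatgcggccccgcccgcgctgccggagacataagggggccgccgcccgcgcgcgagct
In windows of 250 bases before to 50 after a RefSeq start, searched on both strands, the octamer was in 1.74% and CCAAT in 37.4% of all 32851 windows. The Pim2 window held the octamer at 2 positions and CCAAT once, the Pim3 window held CCAAT at 2 positions and no octamer, and the 2 windows of Pim1 held neither. The octamer was added to the search after the Pim2 sequence had been read. It is bound by POU factors, and of these Pou2f2, picked after its values were known, was at 14.0, 13.3 and 16.1 FPKM in control cells, 15.1, 14.8 and 14.6 FPKM at 10 µg/ml, and 7.63, 7.76 and 7.59 FPKM at 100 µg/ml. Its libraries at 100 µg/ml were all below the other 6. The difference of Pou2f2 against control was -0.83 (SE 0.071, limma adjusted p = 0.0022), a description because the gene was picked with its values known. Pou2f1, also looked at after the sequences were read, was at 6.34, 9.26 and 2.82 FPKM in control cells. It was at 5.51, 9.81 and 1.33 FPKM at 10 µg/ml, and 3.27, 2.06 and 3.23 FPKM at 100 µg/ml. The groups of Pou2f1 overlapped, and it did not pass the test at 100 µg/ml against control (limma adjusted p = 0.46). A relation of Pou2f1 or Pou2f2 to Pim2 was not tested, and a match to a motif is no evidence of binding.

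The STAT5 genes, which encode closely related proteins from neighbouring loci, differed less between groups than Pim2. Stat5b (ENSMUSG00000020919, chr11:100780731-100850724, minus strand) was at 14.2, 15.1 and 16.1 FPKM in control cells, 15.7, 17.0 and 14.7 FPKM at 10 µg/ml, and 12.4, 13.5 and 13.6 FPKM at 100 µg/ml. Its libraries at 100 µg/ml were below all others, with a difference of -0.19 (SE 0.073) against control. Stat5a (ENSMUSG00000004043, chr11:100859351-100885169, plus strand) was at 7.97, 10.6 and 8.91 FPKM in control cells, 10.5, 10.7 and 8.47 FPKM at 10 µg/ml, and 8.21, 8.95 and 9.62 FPKM at 100 µg/ml. The 3 groups of Stat5a overlapped, and its difference at 100 µg/ml against control was -0.03 (SE 0.12). Stat5a ends over the 3′ end of Stat3 on the other strand, and whether the strand was used in the estimation is not given in the sources used here. Stat5b was 1.41 to 1.80 times as high as Stat5a across the 9 libraries.

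The feedback inhibitors among the 10 genes were expressed weakly. Cish (ENSMUSG00000032578, chr9:107296026-107302784, plus strand), which binds phosphorylated receptors at STAT5 docking sites, was at 0.447, 0.211 and 0.396 FPKM in control cells, 0.448, 0.0942 and 0.268 FPKM at 10 µg/ml, and 0.164, 0.938 and 0.261 FPKM at 100 µg/ml. Replicate 2 at 100 µg/ml was the highest of the 9 libraries, and the groups overlapped. These levels come from about 3.73 to 33.3 fragments per library, which limits the differences that could be seen. How large a difference could be detected at this depth was not worked out. Socs1 (ENSMUSG00000038037, chr16:10783808-10785536, minus strand), which blocks Janus kinases directly, was at 0.415, 0.194 and 0.436 FPKM in control cells, 0.287, 0.262 and 0.460 FPKM at 10 µg/ml, and 0.646, 0.563 and 0.453 FPKM at 100 µg/ml. Its libraries at 100 µg/ml were all above control but overlapped those at 10 µg/ml, and each rests on about 7.93 to 28.2 fragments. Cish and Socs1 had means under 1 FPKM and were left out of the fit, so 8 of the 10 genes were tested.

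Socs2 (ENSMUSG00000020027, chr10:95385362-95417180, minus strand), known as the brake on growth hormone signalling, was at 2.77, 2.14 and 2.40 FPKM in control cells, 2.06, 2.74 and 3.55 FPKM at 10 µg/ml, and 4.73, 2.73 and 3.15 FPKM at 100 µg/ml. Its mean was highest at 100 µg/ml, but the groups overlapped and replicate 1 was far above the other libraries at that dose. The difference against control was 0.38 (SE 0.19), and 0.20 without that library. Socs3 (ENSMUSG00000053113, chr11:117966079-117970047, minus strand), the inhibitor that acts at gp130 receptors, was at 5.46, 5.74 and 6.18 FPKM in control cells, 6.22, 5.49 and 5.44 FPKM at 10 µg/ml, and 4.82, 4.67 and 5.96 FPKM at 100 µg/ml. The groups of Socs3 overlapped, with a difference of -0.15 (SE 0.098) at 100 µg/ml against control.

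Bcl6 (ENSMUSG00000022508, chr16:23965052-23988852, minus strand) was at 14.7, 15.4 and 16.7 FPKM in control cells, 15.8, 15.2 and 15.6 FPKM at 10 µg/ml, and 11.9, 14.1 and 13.1 FPKM at 100 µg/ml. The libraries at 100 µg/ml were all below the other 6. The difference was -0.25 (SE 0.073) at 100 µg/ml against control and -0.01 at 10 µg/ml against control.

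As a description, since Pim2 was chosen on these contrasts, it was the 1 gene of the 8 in the fit past an adjusted p of 0.05 (limma) at 100 µg/ml against control, where 2.11% of all genes tested were called, and at 100 against 10 µg/ml, where 0.851% were. These shares depend on single libraries. The 236 genes called at 100 µg/ml against control ranged from 31, with control replicate 2 left out, to 539, with replicate 1 at 100 µg/ml left out, and the 95 called at 100 against 10 µg/ml from 8, with replicate 1 at 10 µg/ml left out, to 191, again with replicate 1 at 100 µg/ml left out. None of the 8 was called at 10 µg/ml against control, where 0% of all genes were called by limma. An unadjusted p under 0.05 was reached there by 366 of the 11161 genes and by 0 of the 8. Libraries did not overlap for 5 of the 8 genes at 100 µg/ml against control, with Pim3 higher and Pim1, Pim2, Bcl6 and Stat5b lower, and the same share over all genes tested was 23.8%. At 100 against 10 µg/ml it was again these 5 genes in the same directions, beside 19.4% of all genes, and at 10 µg/ml against control it was 0 of 8, beside 10.7%. Since the genes were chosen with these contrasts known, nothing is read from these counts. The median difference of the 8 genes was -0.16 at 100 µg/ml against control, 0.06 at 10 µg/ml against control and -0.19 at 100 against 10 µg/ml, and that of all genes was -0.0016, 0.00015 and 0.00012. The contrasts share libraries and are not independent of each other.

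**Figure D3:**
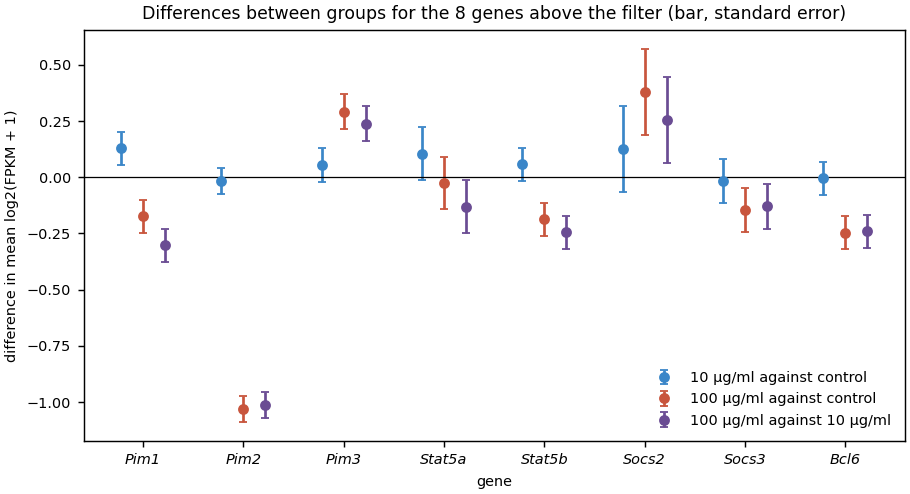
Differences in mean log2(FPKM + 1) (y axis) for the 8 genes above the filter (x axis) in the 3 comparisons, with the standard error as bars. Pim2 lies at -1.03 and -1.01 in both comparisons of 100 µg/ml, and the other 7 genes lie between -0.30 and 0.38.

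Elements of the form TTCNNNGAA, the sequence STAT5 binds, were then searched for on both strands in the RefSeq windows of the genes. The Pim kinases, Cish and the SOCS family are among the genes that STAT5 switches on, and Bcl6, Stat5a and Stat5b were searched with them. The form was present in 8.3% of all windows. Of the 13 windows that 9 of the genes have, 4 windows of 3 genes held it, namely those of Cish, Socs3 and Bcl6. The windows of Pim1, Pim2, Pim3, Socs1, Stat5a and Stat5b held none, which says only that these letters are not in these windows. The matches are given 5′ to 3′ on the strand of the gene, with the element in capitals. The Cish stretch lies at chr9:107296654-107296683 and spans the RefSeq start, inside the span of the gene in the table. The Socs3 stretch lies at chr11:117969506-117969526, upstream of the RefSeq start and inside the gene span of the table. Of the Bcl6 stretches, the one at chr16:23988956-23988976 is upstream of the gene, and those at chr16:23981437-23981457, chr16:23981391-23981411 and chr16:23981357-23981377 precede a second RefSeq start inside the gene.
Cish: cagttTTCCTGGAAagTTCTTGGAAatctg
Socs3: ccagccTTCTTAGAAgggagg
Bcl6, at 23988956: aattagTTCTCAGAAttccag
Bcl6, at 23981437: cgcggcTTCCTGGAAagttac
Bcl6, at 23981391: ggagtgTTCTGTGAAatcctt
Bcl6, at 23981357: actacgTTCCGGGAAtgagag
Cish carried 2 elements side by side and was among the weakest of the 10 genes in all groups, whereas Bcl6, with 4 matches in both windows together, was at 11.9 to 16.7 FPKM. Pim1, Pim2 and Pim3 held no match and had the highest control means of the 10 genes. Socs1 held no match and was about as low as Cish in control cells (0.348 and 0.351 FPKM). A relation between matches and level was not tested.

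The other genes of the pathway were described from 9 lists of 113 names, of which 111 matched the table. The lists were chosen with earlier results of these data known, which limits what the calls and p-values of their genes can support. A total of 74 genes passed the filter on low values, and 18 were listed at 0 in every library. At 100 µg/ml against control 0 of the 74 were called higher and 3 lower, Ptpn6, Hsp90ab1 and Il10ra, beside the 2.11% called of all genes. Whether called or not, 29 of the 74 differences were above 0 and 45 below. At 100 against 10 µg/ml 0 were called higher and 2 lower, Ptpn6 and Hsp90ab1, beside 0.851% of all genes. At 10 µg/ml against control limma called 0 of the 74, and an unadjusted p under 0.05 was reached by 5 of them and by 366 of all 11161 genes. The median difference of the 74 genes at 100 µg/ml against control was -0.05.

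Ptpn6 encodes SHP-1, a phosphatase that removes phosphate from cytokine receptors and Janus kinases in blood cells. It was at 136, 135 and 127 FPKM in control cells, 131, 132 and 119 FPKM at 10 µg/ml, and 96.1, 99.5 and 95.4 FPKM at 100 µg/ml, and the last group did not overlap the others. The difference was -0.45 (SE 0.056, limma adjusted p = 0.0096) at 100 µg/ml against control and -0.39 (limma adjusted p = 0.022) at 100 against 10 µg/ml. Without control replicate 2 the first adjusted p was 0.056, and without replicate 1 at 10 µg/ml the second was 0.12. Over the 17 alternative fits described below, the first call missed the threshold in 1 and the second in 8. Of the other 15 genes on the list of SOCS members and JAK-STAT inhibitors, all above the filter, 0 passed the test. Ptprc (CD45) was at 73.9 ± 0.524 FPKM in control cells and 66.7 ± 6.54 FPKM at 100 µg/ml, and Ptpn11 (SHP-2) at 56.5 ± 2.33 and 47.7 ± 4.87 FPKM (SD, n = 3). Socs4, Socs5, Socs6 and Socs7, the other members of the family, which were picked after their values were seen, had control means of 19.4, 6.31, 13.4 and 7.74 FPKM, all above the 5.79 FPKM of Socs3. Socs5 and Socs6 at 100 µg/ml had differences of 0.20 and 0.22 against control without passing the test (limma adjusted p = 0.16 and 0.060).

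On the side of the receptors, 7 of the 18 genes were above the filter and 6 were listed at 0 in all libraries. The highest were Il2rg (common gamma chain), with 58.9 ± 2.05 FPKM in control cells and 56.0 ± 5.34 FPKM at 100 µg/ml, Csf2rb (common beta chain of the GM-CSF receptor), with 29.0 ± 1.70 and 31.2 ± 2.21 FPKM, and Csf2ra (its alpha chain), with 17.9 ± 0.684 and 17.9 ± 1.53 FPKM (SD, n = 3). None of the 7 passed the limma test in any of the 3 comparisons. At 100 µg/ml against control 3 of the 7 had an unadjusted p under 0.05, beside 2160 of all 11161 genes tested. These 3 were picked here after their values were seen. They were Csf2rb2 with 0.30 (adjusted p = 0.064, limma), Il7r with 0.33 (adjusted p = 0.062, limma) and Csf3r, the G-CSF receptor, with -0.51 (adjusted p = 0.069, limma). Csf2rb and Csf2rb2 are near-identical copies, so the division of reads between them is uncertain. Of 12 STAT5 cytokines only Il15 was above the filter, at 2.31 ± 0.490 FPKM in control cells and 2.11 ± 0.132 FPKM at 100 µg/ml, and 9 were listed at 0 in every library. Csf3, which encodes G-CSF, was below the filter and not tested. It was at 0.489, 0.279 and 0.170 FPKM in control cells, 0.394, 0.444 and 0.302 FPKM at 10 µg/ml, and 0.730, 0.958 and 0.642 FPKM at 100 µg/ml. Its libraries at 100 µg/ml were all above the other 6, and the ratio of the means to control was 2.48. Il5 had a mean of 0.0255 FPKM over the 9 libraries. Csf2, which encodes GM-CSF, was among those listed at 0.

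Of the Janus kinases and other STATs, 8 of 9 were above the filter and none passed the test in any comparison, with 0 at an unadjusted p under 0.05. Jak1 was at 137 ± 13.2 FPKM in control cells and 125 ± 16.0 FPKM at 100 µg/ml, Stat6 at 52.2 ± 6.19 and 52.1 ± 7.72 FPKM and Stat3 at 38.2 ± 1.21 and 34.8 ± 1.90 FPKM (SD, n = 3). Stat3 thus stood at more than the level of Stat5b in each control library. Of the gp130, IL-10 and interferon genes, 8 of 16 were above the filter. Il10ra, the signalling chain of the IL-10 receptor, was at 2.98, 3.04 and 2.75 FPKM in control cells, 2.70, 2.68 and 2.63 FPKM at 10 µg/ml, and 1.84, 1.81 and 1.62 FPKM at 100 µg/ml. Its difference at 100 µg/ml against control was -0.51 (SE 0.088, limma adjusted p = 0.025), which missed the threshold without any 1 of the 3 control libraries and without replicate 3 at 100 µg/ml, up to an adjusted p of 0.099. The Il10ra call also missed it with only the 6 libraries compared and with a replicate block, in all in 6 of the 16 alternative fits that held the gene. Its partner Il10rb was at 54.6 ± 2.41 and 53.0 ± 4.395 FPKM, Il6st (gp130) at 53.6 ± 1.61 and 43.6 ± 10.6 FPKM and Ifnar1 at 35.0 ± 2.35 and 32.0 ± 3.98 FPKM in control cells and at 100 µg/ml (SD, n = 3).

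Of 9 other STAT5 targets above the filter, 0 passed the test in any comparison. Mcl1, a survival factor, was at 195 ± 11.1 FPKM in control cells and 227 ± 16.7 FPKM at 100 µg/ml, Ccnd1 (cyclin D1) at 59.9 ± 2.03 and 63.8 ± 3.99 FPKM, and the growth factor gene Igf1 at 207 ± 14.1 and 172 ± 16.2 FPKM (SD, n = 3). Myc, picked after its values were seen, was at 2.03, 2.15 and 2.11 FPKM in control cells, 2.26, 2.77 and 2.21 FPKM at 10 µg/ml, and 1.46, 1.36 and 1.34 FPKM at 100 µg/ml, and had a difference of -0.38 at 100 µg/ml against control (limma adjusted p = 0.096). Of 15 substrates and partners of the Pim kinases, all above the filter, only Hsp90ab1 passed. Hsp90ab1, which encodes the constitutive chaperone HSP90-beta that stabilizes Pim proteins among its many clients, was at 1971, 1884 and 1824 FPKM in control cells, 1693, 1770 and 1653 FPKM at 10 µg/ml, and 1345, 1410 and 1367 FPKM at 100 µg/ml. Its difference at 100 µg/ml against control was -0.46 (SE 0.055, limma adjusted p = 0.0077). The libraries at 10 µg/ml were also all below control, with a difference of -0.15 that did not pass the test. The adjusted p at 100 µg/ml against control was 0.50 after quantile normalization and 0.056 without control replicate 2. At 100 against 10 µg/ml the difference was -0.31 (limma adjusted p = 0.047), and without replicate 1 at 10 µg/ml the adjusted p was 0.20. This call missed the threshold in 13 of the 17 alternative fits described below, and the call at 100 µg/ml against control in 4. The value of Hsp90ab1 is uncertain, because it has processed pseudogenes that share reads with it. Hsp90aa1, its inducible relative, was at 1168 ± 61.4 and 1118 ± 44.8 FPKM, and the translation factor gene Eif4b, a Pim substrate, at 179 ± 3.48 and 179 ± 3.71 FPKM in control cells and at 100 µg/ml.

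The remaining lists showed no call in any comparison. Of the SOCS ubiquitin ligase partners, 6 were above the filter, and the elongin genes Tceb1 and Tceb2 and the ring finger gene Rnf7 were the highest, at 116 ± 22.6, 132 ± 22.8 and 130 ± 21.8 FPKM in control cells and 102 ± 13.9, 120 ± 18.9 and 98.6 ± 36.4 FPKM at 100 µg/ml (SD, n = 3). Of the BCL6 corepressors and targets, 4 of 8 were above the filter. Ncor1 was at 115 ± 9.78 and 104 ± 29.8 FPKM and Hdac3 at 28.8 ± 0.321 and 29.6 ± 1.65 FPKM in control cells and at 100 µg/ml. A p above the threshold does not show that the levels were equal.

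**Figure D4:**
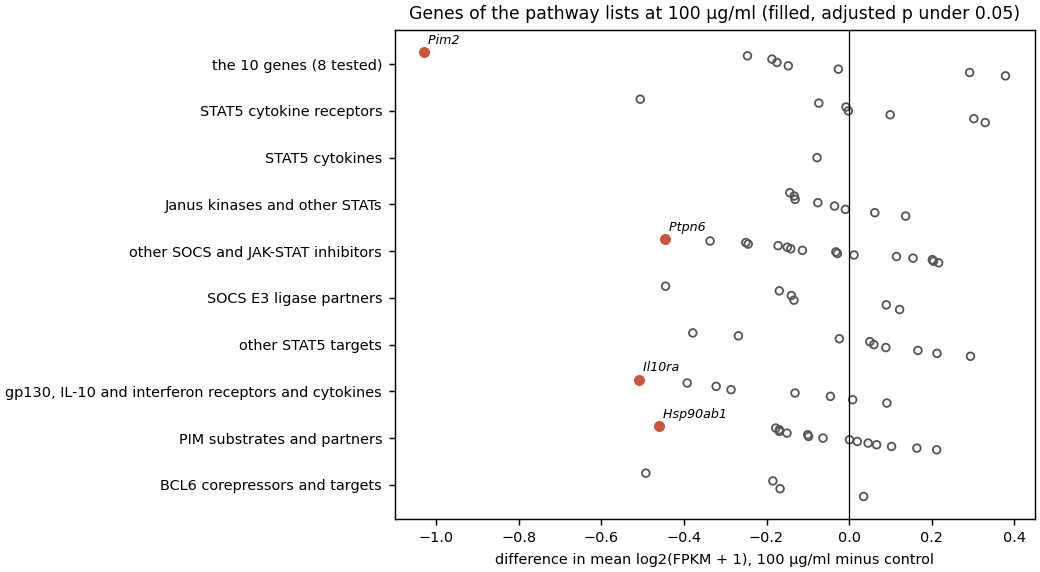
Differences in mean log2(FPKM + 1) at 100 µg/ml minus control (x axis) for the 8 tested of the 10 genes and for the genes of each pathway list above the filter (rows). Filled points have an adjusted p under 0.05 (limma), namely Pim2, Ptpn6, Il10ra and Hsp90ab1, all on the side of lower values, with Pim2 the furthest at -1.03. Pim2 was chosen on this contrast, so its filled point is a description and no support.

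Other genes that ran with the Pim genes across the 9 libraries were listed by Pearson's r of log2(FPKM + 1), as a description. For Pim2 the closest were Herpud1 (0.987), Bcat1 (0.984), Elp3 (0.984), Esyt1 (0.984) and Tagap (0.982). Herpud1, which acts in the removal of misfolded proteins from the endoplasmic reticulum, had means of 46.3, 48.6 and 26.4 FPKM in control cells and at 10 and 100 µg/ml, and Bcat1, a branched-chain amino acid transaminase, 63.9, 63.8 and 48.0 FPKM. For Pim1 they were Cdkn1a (0.974), Gpr84 (0.951), Il1a (0.948), Pfkm (0.942) and Slc39a4 (0.935). Cdkn1a, which encodes the cell cycle inhibitor p21 and is a Pim substrate on the list above, had means of 18.5, 20.7 and 16.4 FPKM, with the same order of groups as Pim1. For Pim3 they were Zfp51, Noa1, Psme3, Tomm70a and Noc2l, with r from 0.963 to 0.969, and for Cish, from few fragments, Ptgs1, Stil, Mtrf1l, Gm13204 and Myo9a, with r from 0.886 to 0.931. These values rest on 9 libraries of 3 groups and any difference between groups enters them.

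Replicate 1 at 100 µg/ml stood apart from the other libraries of its group for several pathway genes, picked after their values were seen. Il6st was at 31.6 FPKM in it and at 51.5 and 47.5 FPKM in the other two, Ncor1 at 70.2 FPKM beside 126.5 and 115.5 FPKM, and the ubiquitin ligase gene Cbl at 15.5 FPKM beside 34.0 and 32.0 FPKM. Over all genes, Pearson's r between 2 libraries was 0.961 to 0.979 over the genes tested, and median-of-ratios size factors were 0.998 to 1.01. Summed FPKM of 10 microglia and macrophage markers was 1064 to 1251 in control cells, 1080 to 1173 at 10 µg/ml and 1024 to 1192 at 100 µg/ml. Csf1r and Cd68 were high. The homeostatic microglia genes Cx3cr1 and P2ry12 were at or below 0.146 FPKM in each library, as a limit of the line as a model. Tmem119, another homeostatic microglia gene of the list, had means of 2.24, 2.20 and 2.02 FPKM in control cells and at 10 and 100 µg/ml. Of 12 markers of other brain cells, 7 were listed at 0 in every library, and their summed FPKM was 0.921 to 1.63 in all groups. Of the 10 microglia and macrophage markers, 8 were above the filter, and limma called 0 of these in any comparison. All 12 markers of other brain cells were below the filter and not tested. All 8 microglia and macrophage markers above the filter had a difference below 0 at 100 µg/ml against control, with a median of -0.18, and 2 had an unadjusted p under 0.05. These were Aif1, which encodes Iba1, with 6.54 ± 0.477 FPKM in control cells and 3.87 ± 1.08 FPKM at 100 µg/ml (limma adjusted p = 0.084), and Csf1r, with 142 ± 3.59 and 123 ± 6.22 FPKM (limma adjusted p = 0.078). Both were without overlap of the libraries, as were 23.8% of all genes tested. An unadjusted p under 0.05 was reached in this comparison by 2160 of the 11161 genes. Aif1 was at 4.97 ± 0.800 FPKM at 10 µg/ml, with all libraries below control. The paper reports that Iba1 protein staining of BV2 cells rose with dose, whereas these values are RNA. The part of these marker differences in the values of the 10 genes was not tested.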

How the data were processed

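The 9 BV2 RNA-seq libraries were grouped by the treatment in their labels, 3 per group. The mRNA was selected with oligo(dT). The paper names a stranded kit for the RNA step and a TruSeq RNA Sample Prep Kit for the adapters, so it is not settled whether the libraries were stranded. After a filter on read quality, the authors mapped reads with TopHat, and Cufflinks 2.1.1 with the genes of Ensembl release 77 gave the FPKM they deposited, corrected for fragment bias and multi-mapped reads. FPKM keeps no counts, and the depth of 12.4 to 15 M fragments rests on the steps seen among low values, of which 67.5% to 78.7% lay within 0.25 of a whole fragment, so it is approximate. The values were transformed to log2(FPKM + 1), and the 11161 genes whose mean reached 1 FPKM entered limma 3.58.1 (R 4.3.3) (3 groups in one fit, eBayes with trend, Benjamini-Hochberg adjustment over all genes tested, threshold 0.05). The procedure was tested on simulated data. Tables and figures were made with Python 3.11.15, pandas 2.3.3, numpy 2.4.6 and matplotlib 3.10.9.

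The 10 genes and the pathway lists were chosen with earlier results of these data known. Named are the 10 genes, list genes past the threshold, the 3 of highest mean FPKM in each list, and the 5 genes closest to Pim1, Pim2, Pim3 and Cish. Genes named beyond this rule are marked in the text, and 1 gene that the rule covers is not reported here. Of the lists, Eloc and Elob were not matched, and their older symbols Tceb1 and Tceb2 were. Coordinates are those of the deposited table, in GRCm38. Pim1 overlaps Gm26885 on the other strand, and Cish overlaps Gm17040 and Gm17041. Socs2 had no RefSeq window. Same-numbered libraries did not deviate together (correlations from -0.088 to 0.152), so the numbers were not taken as pairs. Cuffdiff was not repeated. The alternatives were a pseudocount of 0.1, no filter, a filter at 5 FPKM, median-of-ratios and quantile scaling, no trend, only the 6 libraries compared, a replicate block, and leaving out each library.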

Additional observations from a re-analysis of the deposited data

Results flagged for a closer look

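The effects of the 2 doses were set against each other through the difference between 100 and 10 µg/ml, in which the shared control libraries cancel. For Pim2 this difference was -1.01 on the log2 scale, given as a description because the gene was chosen on this contrast. For Ptpn6, from a list chosen with earlier results of these data known, the difference was -0.39 (limma adjusted p = 0.022). All 3 of its libraries at 100 µg/ml were below those at 10 µg/ml. Without replicate 1 at 10 µg/ml the adjusted p was 0.12, and the call missed the threshold in 8 of the 17 alternatives. For Hsp90ab1, from a list chosen in the same way, the difference was -0.31 (limma adjusted p = 0.047), again lower in 3 of 3 libraries. Without replicate 1 at 10 µg/ml the adjusted p was 0.20, and the call missed the threshold in 13 of the 17 alternatives. Groups of 3 libraries are too small for the gap test used to mark single samples, so none was run.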

How the results depend on the processing

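As a description, the difference of Pim2 at 100 µg/ml against control was between -1.11 and -1.0003 over the 17 alternatives, which is no independent support because the gene was chosen on this contrast. Of 405 differences of these genes compared, 2 moved by more than the SD between replicates, both of Pim2 with a pseudocount of 0.1 (-1.11 and -1.09), and 10 changed sign, none of them past the threshold. For the pathway genes at 100 µg/ml against control, 3 in the fit reported, quantile normalization gave 5, only the 6 libraries compared gave 1, and leaving out 1 library gave 0 (without control replicate 2) to 6 (without replicate 1 at 100 µg/ml). At 100 against 10 µg/ml, 2 in the fit reported, no filter gave 1, quantile normalization 1, only the 6 libraries compared 0, and leaving out 1 library 0 to 2; the count was 0 without control replicate 1, without replicate 1 or 2 at 10 µg/ml and without replicate 2 or 3 at 100 µg/ml. A replicate block gave 2 pathway genes at 100 µg/ml against control and 0 at 100 against 10 µg/ml, and over all genes 106 in place of 236 and 13 in place of 95; same-numbered libraries did not deviate together. With only the 6 libraries compared, the counts over all genes were 22, 1 and 6. Leaving out 1 library gave 31 to 539 genes at 100 µg/ml against control and 8 to 191 at 100 against 10 µg/ml. Causes of these moves were not tested, and the fits that leave libraries out also hold fewer samples. The pooled spread of 3 libraries a group and the few fragments of Cish and Socs1 limit what could be detected.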
